A study of Mus musculus with 9 samples.

Results

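Oxidative phosphorylation genes of mouse embryonic stem (ES) cells sorted by Myc level are described here. They were picked by name alone, with no measured value in the rule. The rule took names that begin with Nduf, Uqcr, Atp5 or mt-, or with Cox and a digit from 4 to 8, added Sdha, Sdhb, Sdhc and Sdhd, and left out 1 name that carried -ps. It found 109 of the 13499 genes in the authors' table. Of these, 87 are nuclear genes and 22 carry the mt- prefix of the mitochondrial genome. The nuclear genes comprise 36 subunits of complex I, 8 complex I assembly factors, 4 subunits of complex II, 8 of complex III, 15 of complex IV and 16 of complex V. Ndufa4 and Ndufa4l2 were counted with complex IV, where the Ndufa4 protein is now placed, and Atp5sl with the complex I assembly factors. The mt- genes comprise 13 messenger RNAs, 2 ribosomal RNAs and 7 transfer RNAs.

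The cells were mouse ES cells of strain C57BL/6, cultured on gelatine with LIF, a cytokine that sustains self-renewal. They were sorted in a cytometer on fluorescence, either of EYFP or of Myc fused to GFP; which of these reporters served for a given sample is not stated in the labels. There were 3 populations, named High, Medium and Low for their Myc level, each with 3 replicates that the labels call biological. Total RNA was sequenced in single-end reads of 61 nt, and the comparisons ask how RNA levels differ with Myc level. No untreated or unsorted group is among the samples.

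The respiratory chain passes electrons from NADH (complex I) and succinate (complex II) through complex III to complex IV, which reduces oxygen, and complex V uses the resulting proton gradient to make ATP. Complexes I, III, IV and V are built from subunits of both the nuclear and the mitochondrial genome, whereas complex II is entirely nuclear. ES cells draw much of their ATP from glycolysis but keep a working respiratory chain, and Myc is known as a regulator of growth and of mitochondrial genes.

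For 5 mt- messenger RNAs some or nearly all of the sequence does not tell the mitochondrial gene from a nuclear copy. A block of unprocessed pseudogenes on chromosome 1 (GRCm38, chr1:24612775-24616197, minus strand) holds near-identical copies of mt-Co1, mt-Co2, mt-Atp6, mt-Co3 and mt-Nd3, and the authors' table has a row for each copy. The copies of mt-Co2 (681 nt aligned), mt-Atp6 (678 nt) and mt-Co3 (783 nt) were 100% identical to the mitochondrial gene. The copies of mt-Co1 (483 nt aligned of a transcript of 1545 nt) and mt-Nd3 (345 nt) had 1 mismatch each. The windows below show those mismatches, with the differing base in capitals. The substitutions are A1066T for mt-Co1 and T3C for mt-Nd3, counted from 1 at the 5′ end of the mitochondrial transcript, with the mitochondrial base first. The windows lie at chrM:6390-6413 (plus strand), chr1:24616165-24616188 (minus), chrM:9459-9481 (plus) and chr1:24613097-24613119 (minus).
mt-Co1: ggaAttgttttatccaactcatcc
Gm29216: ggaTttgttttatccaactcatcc
mt-Nd3: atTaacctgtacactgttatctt
Gm28438: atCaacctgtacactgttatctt

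Among the nuclear genes, the results turn on Ndufaf3 and Cox6b2, the 2 members whose RNA fell between Low and High. Their promoters are shown with that of Cox6b1, the other isoform of the same subunit, and that of Uqcrc1, a subunit of complex III. Each sequence runs from 250 bases before to 50 bases after the start of the gene, from RefSeq on GRCm38.p6, and capitals mark matches to the motifs named next. The 4 motifs searched on both strands were the E-box that Myc and Max bind (CACGTG), the core of NRF1 (GCGCA, any base, GCGC), the ETS site of GABP (CCGGAAGT) and the core of YY1 (AANATGGC). The motifs were counted separately and matches may overlap. The windows are chr9:108567387-108567686 (minus) for Ndufaf3, chr7:4753045-4753344 (minus) for Cox6b2, chr7:30626065-30626364 (minus) for Cox6b1 and chr9:108936398-108936697 (plus) for Uqcrc1.
Ndufaf3: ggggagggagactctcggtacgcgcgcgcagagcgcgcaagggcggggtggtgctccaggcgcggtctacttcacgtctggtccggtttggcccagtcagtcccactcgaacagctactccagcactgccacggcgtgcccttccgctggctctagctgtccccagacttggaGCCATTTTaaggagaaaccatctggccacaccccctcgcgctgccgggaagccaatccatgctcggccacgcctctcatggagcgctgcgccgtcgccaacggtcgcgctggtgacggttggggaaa
Cox6b2: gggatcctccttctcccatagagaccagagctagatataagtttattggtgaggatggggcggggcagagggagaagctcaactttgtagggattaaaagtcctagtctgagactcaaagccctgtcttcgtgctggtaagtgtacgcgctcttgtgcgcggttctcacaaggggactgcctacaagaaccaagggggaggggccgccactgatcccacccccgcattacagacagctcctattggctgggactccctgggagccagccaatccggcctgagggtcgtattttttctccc
Cox6b1: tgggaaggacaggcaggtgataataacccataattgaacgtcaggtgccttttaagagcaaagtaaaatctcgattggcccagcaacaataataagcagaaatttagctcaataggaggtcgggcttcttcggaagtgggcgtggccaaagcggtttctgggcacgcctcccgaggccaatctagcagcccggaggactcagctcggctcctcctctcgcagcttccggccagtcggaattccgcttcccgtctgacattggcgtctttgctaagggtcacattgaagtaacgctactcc
Uqcrc1: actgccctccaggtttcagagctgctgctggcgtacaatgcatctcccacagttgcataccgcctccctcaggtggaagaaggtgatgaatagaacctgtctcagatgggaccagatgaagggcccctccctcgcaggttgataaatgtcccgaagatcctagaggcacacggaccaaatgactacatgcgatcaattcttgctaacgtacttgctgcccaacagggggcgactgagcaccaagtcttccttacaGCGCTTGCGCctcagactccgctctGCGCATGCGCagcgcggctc

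Promoters were found for 74 of the 87 nuclear members, 80 promoters in all. The NRF1 core was present in 25% of them, against 4.603% of all 32851 promoters in the table, and the YY1 core in 25% against 6.052%. The E-box was present in 11.25% against 7.15%, and the ETS site in 6.25% against 3.887%. The Ndufaf3 promoter held the YY1 core, the Uqcrc1 promoter held the NRF1 core, and those of Cox6b2 and Cox6b1 held none of the 4 motifs. A match is a description of letters, and binding was not measured.

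Signal below means the deposited value of a gene, its reads divided by a factor of the library so that a library sums to 953055 to 1026948. Values are given as mean ± SD with n = 3, or for each library. Libraries held 11114936 to 16755566 reads, as recovered from the steps of the deposited values. Myc RNA followed the sort, at 24.2 to 27.6 in Low, 65.5 to 70.0 in Medium and 101 to 112 in High. All 8 ES cell markers were measured, with a summed signal of 4562 to 6377 per library. The 7 measured fibroblast markers summed to 32.6 to 46.9 in Low, 43.2 to 67.5 in Medium and 32.5 to 47.5 in High, with Col1a1 and Col1a2 reaching 21.7 and 20.9, and Dcn and Postn 1.26 and 1.87. Myh6, the 1 measured heart and muscle marker, lay between 0.716 and 2.94, and Sox7 and Dab2, of primitive endoderm, summed to 5.07 to 7.28. The summed signal of the 6 measured trophoblast markers moved with the sort, at 262 to 351 in Low, 82.7 to 98.7 in Medium and 39.2 to 41.5 in High. Among them Rhox6 ranged from 11.2 to 148 over the libraries and Rhox9 from 9.25 to 139, while Eomes lay between 3.90 and 6.85. Their part in the results below was not tested. In bulk RNA, fewer cells of a type and less RNA per cell cannot be told apart.

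Between High and Low, 107 of the 109 respiratory chain genes did not pass the test, and the 2 that changed were both lower in High. These were Ndufaf3, an assembly factor of complex I, and Cox6b2, an isoform of a complex IV subunit known from testis. They are 1.83% of the 109 members, where 28.4% of all genes passed (3832 of 13499, limma, adjusted p under 0.05). Lower calls were 2 of 109 members against 14.6% of all genes, and higher calls 0 of 109 against 13.8%. Of the 87 nuclear members, 24 fold changes were above 0 and 63 below, with a median of -0.08 (log2), against 0.00 over all genes. At an unadjusted p under 0.05, 5 members passed, and on the recovered reads edgeR and DESeq2 each called 3 members, adding Ndufa4l2 (background 27.2% and 28.7% of all genes). Fold changes below are on the scale of log2(signal + pseudocount), with a pseudocount of 1 CPM, that is, in proportion to the library total, which understates the change of low genes.

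**Figure D1:**
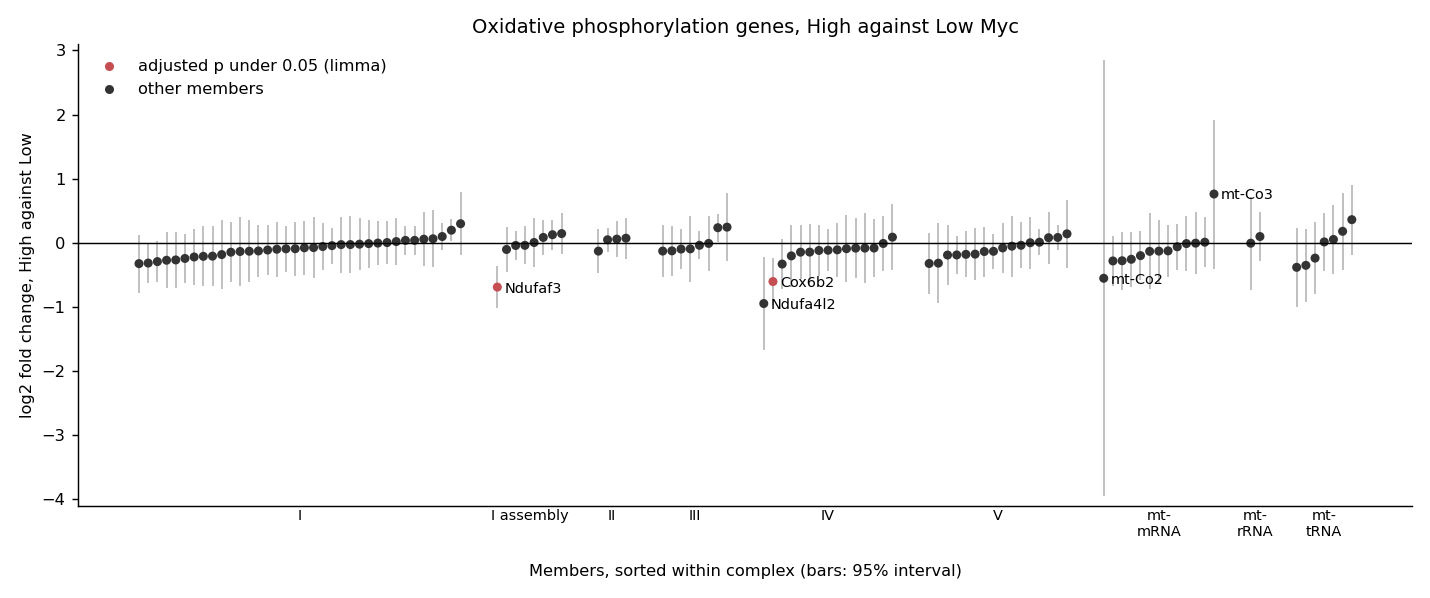
Log2 fold change of each of the 109 members for High against Low, sorted within its complex, with the 95% interval from limma. Ndufaf3 and Cox6b2, in red, are the 2 members past the threshold, and the intervals of the mt- messenger RNAs mt-Co2 and mt-Co3 are the widest.

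Precision differed among the members. The 95% interval of the fold change between High and Low lay wholly inside a 2-fold change in either direction for 85 of 87 nuclear members and 19 of 22 mt- members. It lay inside 1.5-fold for 59 nuclear and 8 mt- members. For the remaining members, Ndufaf3 and Cox6b2 included, the interval reached past 1.5-fold. The standard error ranged from 0.08 to 0.33 (log2) among nuclear members and reached 1.52 among mt- members, for mt-Co2.

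Ndufaf3 binds complex I intermediates together with Ndufaf4 during assembly. Its signal was 13.5, 19.7 and 17.8 in Low replicates 1 to 3, 9.03, 10.8 and 11.9 in Medium, and 9.9, 9.69 and 10.5 in High. Every Low library lay above every Medium and High library, while Medium and High overlapped. The means were 17 ± 3.16 in Low and 10 ± 0.397 in High, a log2 fold change of -0.69 ± 0.15 (SE; limma, adjusted p = 0.0077). This call held without any 1 of the 9 libraries. These values rest on 109 to 224 reads per library. Ndufaf3 lies at chr9:108565537-108567434 on the minus strand (GRCm38, GENCODE M21), and its last 48 nt overlap the end of Impdh2 on the plus strand (chr9:108560286-108565584). Whether the authors' counting used strand is not given in the sources used here, so reads of the overlap cannot be assigned. Impdh2, which makes a precursor of guanine nucleotides, had signal from 456 to 579 and a log2 fold change of -0.13 (limma, adjusted p = 0.333).

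Ndufaf4, the partner of Ndufaf3, did not pass (log2 fold change -0.04, limma, adjusted p = 0.803). Its signal was 30.7, 39.8 and 36.3 in Low, 30.7, 34.6 and 31.7 in Medium, and 33.9, 34.9 and 34.4 in High, so that the High libraries lay within the range of the Low libraries. The ratio of Ndufaf3 to Ndufaf4 within each library, a comparison added after these values were seen, was 0.44, 0.494 and 0.49 in Low and 0.292, 0.278 and 0.304 in High. These groups did not overlap (two-sided exact permutation test, p = 0.1, the smallest that 3 libraries against 3 allow). The other 6 assembly factors, Ndufaf1, Ndufaf2, Ndufaf5, Ndufaf6, Ndufaf7 and Atp5sl, had log2 fold changes from -0.10 to 0.14.

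Cox6b2 encodes a subunit on the outer face of complex IV that takes the place of Cox6b1. Its signal was 27.5, 42.4 and 35.5 in Low, 18.7, 24.5 and 20.7 in Medium, and 20.2, 22.2 and 25 in High. Every Low library lay above every Medium and High library. The log2 fold change between High and Low was -0.60 ± 0.16 (SE; limma, adjusted p = 0.0207). This call was lost without Low replicate 2 (adjusted p = 0.057), Low replicate 3 (0.0702), High replicate 1 (0.0758) or High replicate 2 (0.063), all by limma, while the fold change stayed between -0.60 and -0.46 in these fits. Cox6b2 lies at chr7:4751792-4753094 on the minus strand, and no other annotated gene overlaps it.

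Cox6b1, the isoform of most tissues, had signal of 109, 192 and 142 in Low, 118, 151 and 123 in Medium, and 120.4, 156 and 155 in High, so its populations overlapped. The ratio of Cox6b2 to Cox6b1 cancels what both genes share within a library. It was 0.253, 0.221 and 0.249 in Low, 0.159, 0.162 and 0.168 in Medium, and 0.168, 0.142 and 0.162 in High. The Low libraries stood above all others, and Medium and High overlapped (two-sided exact permutation p = 0.1 for High against Low and for Medium against Low, the smallest possible, and 0.6 for High against Medium). The isoform ratio thus varied less among the Low libraries than the signal of either gene did.

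**Figure D2:**
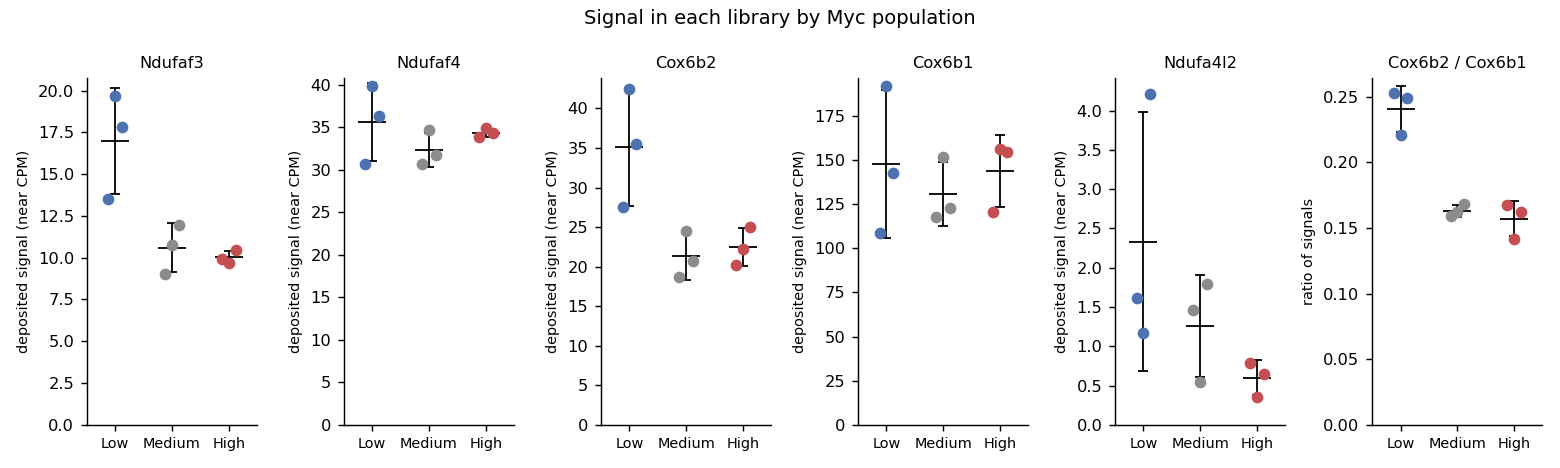
Deposited signal in each library for Ndufaf3 and its partner Ndufaf4, the isoforms Cox6b2 and Cox6b1, and Ndufa4l2, with the ratio of Cox6b2 to Cox6b1 in the last panel. Dots are libraries and bars are mean ± SD (n = 3); for Ndufaf3, Cox6b2 and the ratio, the 3 Low libraries lie above all Medium and High libraries.

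Ndufa4l2, a paralog of Ndufa4 known to be induced in low oxygen, had the lowest fold change of the members and did not pass by limma. Its signal was 1.62, 1.16 and 4.22 in Low, 1.46, 0.539 and 1.79 in Medium, and 0.792, 0.356 and 0.644 in High. The Low and High libraries did not overlap, and Low replicate 3 was far above the other libraries. The log2 fold change was -0.95 ± 0.33 (SE; limma, adjusted p = 0.0556), with 4 to 53 reads per library. It passed with edgeR (adjusted p = 0.0371), with DESeq2 (0.012) and with limma when the replicate number was a block (0.0108), and not without Low replicate 3 (limma, adjusted p = 0.169). Ndufa4 itself had 179 ± 50.7 in Low and 158 ± 17.7 in High (limma, adjusted p = 0.602).

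Of the members, 6 had High and Low libraries that did not overlap, or 5.5%, against 41.6% of all genes. Besides Ndufaf3, Cox6b2 and Ndufa4l2, which were lower in High, these were Ndufs1, Sdha and the transfer RNA mt-Tn, whose High libraries lay above the Low libraries. Ndufs1, the largest iron-sulphur subunit of complex I, had 133, 121 and 129 in Low, 158, 138 and 141 in Medium, and 152, 146 and 142 in High. Its log2 fold change was 0.20 ± 0.08 (SE; limma, adjusted p = 0.0895), and it passed in alternatives described below. Sdha, the flavoprotein that oxidises succinate, had 272, 274 and 267 in Low and 286, 279 and 276 in High, a log2 fold change of 0.05 (limma, adjusted p = 0.711).

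Complex I takes up electrons from NADH at its catalytic core. For the 7 nuclear core subunits, Ndufs1 and Ndufv1 among them, grouped after the values were seen, 4 fold changes for High against Low were above 0 and 3 below, with a median of 0.02 (log2). For the 29 accessory subunits, which stabilise and regulate the enzyme, 5 were above and 24 below, with a median of -0.10. None of these 36 passed. The longest annotated transcripts of the core genes also had a greater median length (1661 nt) than those of the accessory genes (918 nt). Transcript length moved with the fold change, as described below. With the transcript length correction, 6 core fold changes were above 0 and 1 below, with a median of 0.10. Of the accessory ones 10 were above and 19 below, with a median of -0.06. Ndufb4, an accessory subunit, had the lowest mean signal of complex I, at 16.1, with 12.7, 17.4 and 15.7 in Low and 15.2, 21.1 and 20.8 in High. The Ndufb4 value is uncertain, because a processed pseudogene in the table is identical to it over 390 nt. Near-identical pseudogenes of Ndufab1, of Cox7c (complex IV) and of Atp5l (complex V) are also in the table.

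Complex II, the succinate dehydrogenase, showed the narrowest range of the 5 complexes, with all 4 log2 fold changes between -0.13 and 0.07. It also has the fewest members, and a range tends to widen with more members. Sdha, with the highest mean signal at 281, is described above. The iron-sulphur subunit Sdhb had 117 ± 25.5 in Low, 98.8 ± 11.8 in Medium and 106 ± 8.92 in High. The membrane anchors Sdhc and Sdhd had 87.7 ± 19 and 151 ± 26.7 in Low against 90.9 ± 6.64 and 156 ± 11.5 in High, and Sdhc had the lowest mean signal of the complex. The smallest adjusted p among them was 0.567 (limma).

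In complex III, which moves electrons from ubiquinol to cytochrome c, the log2 fold changes ran from -0.13 to 0.24 and none passed. Uqcrc1, a core subunit, had the highest mean signal of the complex at 312. It showed 254, 320.2 and 287 in Low, 316, 321 and 297 in Medium, and 316, 337 and 358 in High, so Low and High overlapped through Low replicate 2. Its log2 fold change was 0.24 ± 0.10 (SE; limma, adjusted p = 0.0975). Uqcr11, a small accessory subunit, had the lowest mean signal, at 76.5.

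Complex IV, cytochrome c oxidase, had 14 of 15 fold changes below 0 for High against Low and a median of -0.12, against 0.00 over all genes tested. This direction turned with 1 library: the median was 0.07, with 12 of 15 above 0, without Low replicate 2, and -0.34 without Low replicate 1. Cox4i1, the main isoform of a regulatory subunit and the most abundant nuclear RNA of the complex, had 441, 692 and 571 in Low, 375, 517 and 394 in Medium, and 401, 464 and 470 in High (limma, adjusted p = 0.178). Cox4i1 overlaps Emc8, on the other strand, by 352 nt, and lies inside the longer gene model Gm20388 on the same strand. Emc8 had a log2 fold change of -0.07 (limma, adjusted p = 0.709). Cox6a1 had 273 ± 63.8 in Low and 255 ± 44.1 in High, and Cox8a had 218 ± 70.5 and 199 ± 19.9. The muscle and heart isoform Cox7a1 was measured at 5.14 on average, with a ratio to Cox7a2 of 0.0393 ± 0.00238 in Low and 0.0403 ± 0.00111 in High. Cox7a2l had a ratio to Cox7a2 of 1.26 ± 0.108 in Low and 1.28 ± 0.0203 in High. The isoforms Cox4i2, Cox6a2, Cox8b and Cox8c were not analysed here.

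Complex V, the ATP synthase, had log2 fold changes from -0.32 to 0.14 and no member that passed. Atp5b, the catalytic beta subunit, had 2069 ± 151 in Low, 2063 ± 67.5 in Medium and 2080 ± 71.3 in High, a log2 fold change of 0.01 with a 95% interval from -0.20 to 0.21. Atp5s, a coupling factor, had a mean signal of 5.05. The 3 genes for the identical mature c subunit differed in level but none passed. Mean signal was 211 for Atp5g1, 331 for Atp5g2 and 428 for Atp5g3. Per kb of the longest annotated transcript (4715, 753 and 862 nt) it was 44.8, 439 and 496. Which transcript is expressed was not tested, so the gap per kb for Atp5g1 depends on that annotation. The ratio of Atp5g1 to Atp5g3 was 0.468 ± 0.0112 in Low, 0.475 ± 0.06 in Medium and 0.544 ± 0.0145 in High. Low and High did not overlap in this ratio (two-sided exact permutation p = 0.1, the smallest possible), although neither gene passed on its own. Their longest annotated transcripts, which the length correction uses, differ in length (4715 and 862 nt). With that correction the log2 fold changes came closer together, from 0.08 and -0.14 to 0.05 and -0.06. Of these 3, Atp5g2 had the largest SD within Low, with 251, 563 and 405 in Low.

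Levels compared per kb of the longest annotated transcript put the complexes in an order. The median member had a signal per kb of 59.5 in complex I, 91.9 in complex II, 126 in complex III, 155 in complex IV and 151 in complex V, against 12.4 for the complex I assembly factors and 6.98 over all genes. Within complex I the range was from 12.6 for Ndufb2 to 196 for Ndufa7, within complex IV from 1.41 for Ndufa4l2 to 628 for Cox4i1, and within complex V from 3.16 for Atp5s to 1081 for Atp5b. All 8 assembly factors, from 8.43 for Ndufaf3 to 19.9 for Atp5sl, lay below the median member of each complex. These values rest on the longest annotated transcript, and which transcript is expressed was not tested. Ndufb2, divided by 4371 nt, had a mean signal of 55.2, against a median of 66.6 in complex I. Without division by length the medians of complexes II to V were 130, 113, 169 and 196, so the order of the complexes changed. Those of the assembly factors and of all genes were then 26.7 and 23.5.

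Between Medium and Low the same 2 members changed, again lower in the population with more Myc. Ndufaf3 had a log2 fold change of -0.63 ± 0.15 and Cox6b2 of -0.68 ± 0.16 (SE; limma, adjusted p = 0.0266 for both). These are 2 of 109 members, where 12% of all genes passed (1621 of 13499) and 5.87% were lower in Medium. Both calls are fragile. With only the Medium and Low libraries in the fit the adjusted p was 0.078 for Ndufaf3 and 0.0691 for Cox6b2 (limma). For Ndufaf3 the call was lost without Low replicate 2 or 3 or any Medium replicate, and for Cox6b2 without Low replicate 2 or 3 or Medium replicate 1 or 3. Non-overlapping libraries were found for 4 members, or 3.67%, against 29.6% of all genes: Ndufaf3, Cox6b2, Ndufs1 and mt-Ty. Of the 87 nuclear members, 8 fold changes were above 0 and 79 below, with a median of -0.19 (log2), against -0.01 over all genes. Without Low replicate 2, 39 were above 0 and 48 below, with a median of -0.02. The comparison shares its Low libraries with that of High against Low, so the values are given side by side and not as separate support.

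Between High and Medium no member passed by limma, where 0.407% of all genes did (55 of 13499), and none passed with edgeR or DESeq2 (0.467% and 1.93% of all genes) or at an unadjusted p under 0.05. The smallest unadjusted p among members were those of Ndufb4 (log2 fold change 0.43 ± 0.22, adjusted p = 0.539 by limma), Atp5sl (0.19 ± 0.13, 0.713) and mt-Co2 (2.12 ± 1.52, 0.73). Non-overlapping libraries were found for Ndufv1 and Ndufaf5, which are 1.83% of members against 20.1% of all genes. The fold changes leaned one way, with 83 of 87 nuclear members above 0 and a median of 0.10, where the median standard error was 0.18. Over all genes 6910 of 13499 were above 0, with a median of 0.01. With the transcript length correction 63 nuclear members were above 0 and 24 below.

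The nuclear genes moved together from library to library more than from population to population. Relative to each gene's mean over the 9 libraries, the median log2 deviation of the 87 nuclear members was -0.29, 0.44 and 0.14 in Low replicates 1 to 3. It was -0.22, 0.08 and -0.19 in Medium and -0.16, 0.08 and 0.10 in High. Low replicate 1 was thus the lowest library and Low replicate 2 the highest, and both carry the same label. Low replicate 2 had the highest signal of the 9 libraries for 78 of the 87 nuclear members (89.7%, against 25.8% of all genes). Low replicate 1 had the lowest for 52 of 87 (59.8%, against 15.5% of all genes). The pattern ran through all complexes. In Low replicate 2 the median deviation was 0.54 in complex IV, 0.44 in complex I, 0.42 in complex V, 0.38 in complex III, 0.25 in complex II and 0.24 among assembly factors. The coefficient of variation was largest in Low for 83 of the 87, with a median of 24.8% in Low, 13.3% in Medium and 10% in High. As a share of all signal, the nuclear members took 1.45% ± 0.237 in Low, 1.3% ± 0.106 in Medium and 1.35% ± 0.0982 in High.

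**Figure D3:**
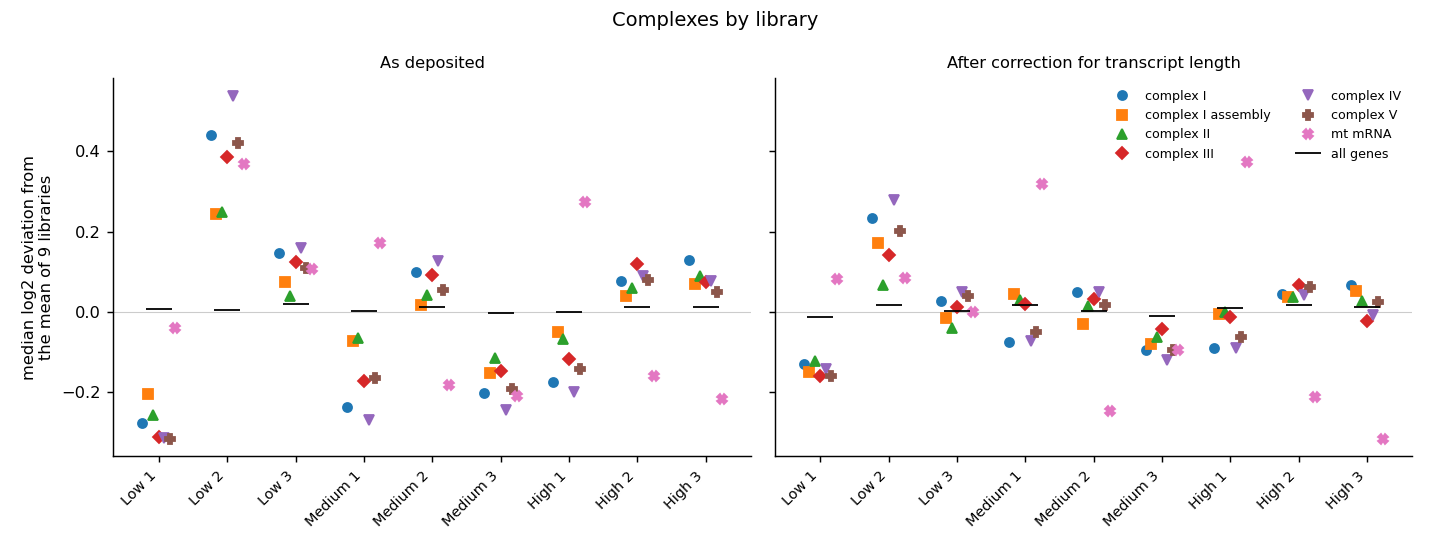
Median log2 deviation of each complex and of the mt- messenger RNAs from the mean of the 9 libraries, by library, as deposited and after a correction for transcript length. Within Low, replicate 2 lies above and replicate 1 below most other libraries for each nuclear complex, and the correction brings the nuclear complexes closer to 0.

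Transcript length moved with this pattern. The longest transcript of the nuclear members had a median length of 1200 nt, against 3287 nt over all genes. The log2 difference between genes with long transcripts (at least 4729 nt) and short ones (at most 2100 nt) was 0.28 in Low replicate 1, -0.59 in replicate 2 and -0.27 in replicate 3. It was 0.30, -0.05 and 0.25 in Medium, and 0.25, -0.06 and -0.07 in High. Across all 13418 genes with a known length, fold change and length had a Spearman correlation of 0.20 for High against Low, 0.38 for Medium against Low and -0.26 for High against Medium. Across the 87 nuclear members it was 0.26, 0.30 and -0.18. These are correlations across genes, which share libraries and are not replicates. What in the libraries differs with length was not tested.

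The size of the difference between populations therefore depended on which Low library was included. The median fold change of the nuclear members for High against Low was -0.08 with all libraries, -0.28 without Low replicate 1, 0.08 without Low replicate 2 and -0.05 without Low replicate 3, against a median over all genes of 0.00, -0.01, 0.01 and 0.01. Without Low replicate 1, 24 members passed (1 higher and 23 lower) where 43.3% of all genes did, 22.7% higher and 20.6% lower. Without Low replicate 2, 3 members passed where 22.6% of all genes did, and without Low replicate 3, 1 member where 17.4% did. For Medium against Low, 48 members were lower without Low replicate 1, where 38% of all genes passed and 17.7% were lower, and 0 passed without Low replicate 2 or without Low replicate 3, where 6.83% and 3.9% did. The median of the nuclear members for Medium against Low was -0.19 with all libraries. It was -0.39, -0.02 and -0.17 without Low replicates 1, 2 and 3. So the direction of the nuclear respiratory genes as a whole turned with the choice of Low library for High against Low. For Medium against Low the median stayed below 0 and its size changed. Ndufaf3 and Cox6b2 stayed lower in High in each of these fits.

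**Figure D4:**
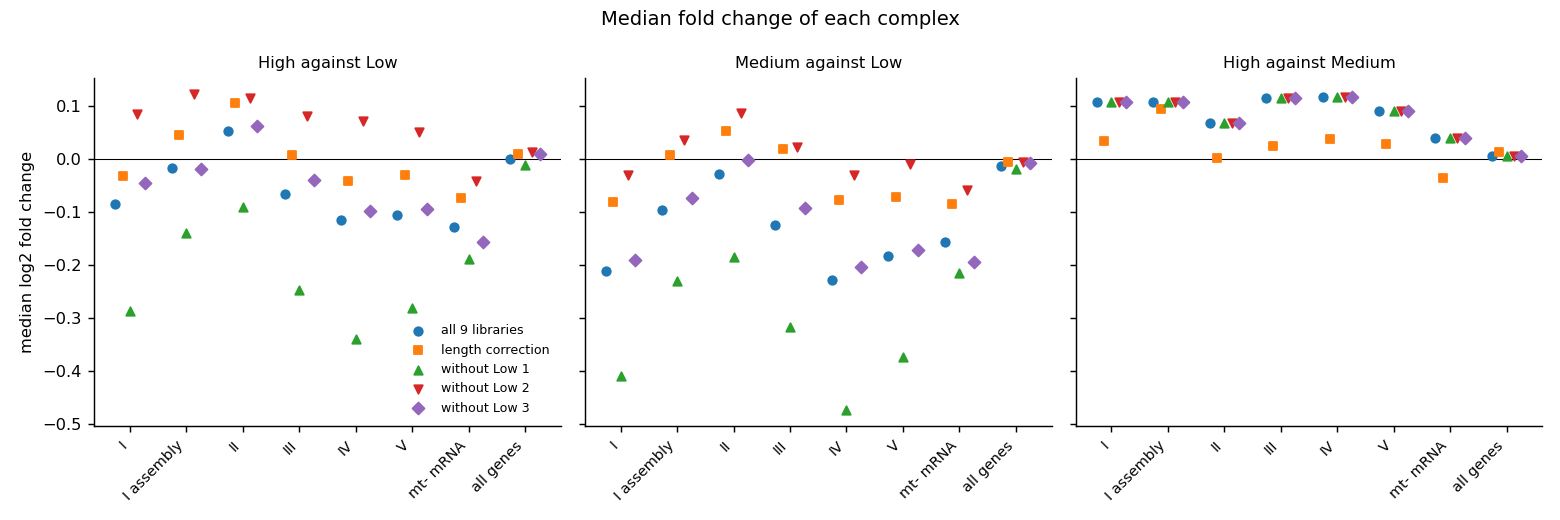
Median log2 fold change of each complex, of the mt- messenger RNAs and of all genes in the 3 comparisons, with all 9 libraries, after the transcript length correction, and without each Low library in turn. For High against Low the nuclear medians lie below 0 without Low replicate 1 and above 0 without Low replicate 2.

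With each library corrected for its trend on transcript length, the medians of the nuclear members came closer to 0. They were -0.03 for High against Low, -0.07 for Medium against Low and 0.03 for High against Medium. The library pattern became smaller but remained. Low replicate 2 was still the highest library for 61 of the 87 nuclear members, and Low replicate 1 the lowest for 46. Their median deviations were 0.20 and -0.14. With the length correction 7 members passed for High against Low, where 38% of all genes did (19.9% higher and 18.1% lower). Ndufaf3 (log2 fold change -0.61) and Cox6b2 (-0.56) were lower as before, and so were Ndufa8 (-0.22) and Cox4i1 (-0.26). Uqcrc1 (0.29) and Ndufs1 (0.25) were among the higher ones. The genes added by the correction are named after their values were seen, and each of those named changed by less than 1.5-fold. With this correction the call of Ndufs1 was lost without Low replicate 2 (adjusted p = 0.102) or 3 (0.0922), Medium replicate 3 (0.0504), or High replicate 1 (0.119), 2 (0.0793) or 3 (0.0508), all by limma, while that of Uqcrc1 held without any 1 library. Annotated genes on the other strand overlap Ndufs1. With the replicate number as a block, 7 members passed as well, where 38.8% of all genes did (20.2% higher and 18.6% lower). These were Ndufs1, higher in High, and Ndufa8, Ndufv3, Ndufaf3, Cox4i1, Cox6b2 and Ndufa4l2, lower in High. Ndufaf3 and Cox6b2 were thus called with and without the length correction and the block for High against Low.

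The mitochondrial genome encodes 7 subunits of complex I, 1 of complex III, 3 of complex IV and 2 of complex V, and all 13 messenger RNAs were measured. None passed in any comparison by limma as fitted here over the 9 libraries with equal weight, but some passed under alternatives. With sample weights, mt-Nd2, mt-Nd4, mt-Nd6 and mt-Cytb were lower in High and in Medium than in Low, where 28.8% and 26.6% of all genes were lower. Low replicate 3 had a weight of 6.60 in that fit, against 0.218 and 0.409 for Low replicates 1 and 2. Without Low replicate 1, mt-Nd6 was lower for High against Low (20.6% of all genes lower), and mt-Nd6 and mt-Cytb for Medium against Low (17.7%). With the replicate block, the row of mt-Co3 was higher for Medium against Low (limma, adjusted p = 0.0494), where 15.4% of all genes were higher. As a share of all signal, the 22 mt- rows took 3.1% ± 0.304 in Low, 2.74% ± 0.455 in Medium and 2.78% ± 0.623 in High. The library shares were 2.85%, 3.44% and 3% in Low, 3.27%, 2.45% and 2.52% in Medium and 3.49%, 2.49% and 2.35% in High. The populations overlapped, with the highest share in a High library and the lowest in another.

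Among the mt- messenger RNAs without a chromosome 1 copy, mt-Nd1 had 3751 ± 884 in Low, 3318 ± 432 in Medium and 3393 ± 450.2 in High. The other complex I subunits mt-Nd2, mt-Nd4, mt-Nd4l, mt-Nd5 and mt-Nd6 had Low means of 1886 ± 306, 3089 ± 541, 439.5 ± 25.9, 1866 ± 26.6 and 677 ± 209.5. Their High means were 1648 ± 322, 2598 ± 569, 448 ± 134, 1922 ± 513 and 543 ± 73.7. The complex III subunit mt-Cytb had 3807 ± 741 in Low and 3121 ± 551 in High, and the complex V subunit mt-Atp8 had 1075 ± 121 and 1039 ± 218. Their log2 fold changes for High against Low ran from -0.28 to 0.01, with a smallest adjusted p of 0.251 (limma, for mt-Cytb). The libraries varied in another way than for the nuclear genes. The median deviation of the 13 mt- messenger RNAs was 0.37 in Low replicate 2, 0.27 in High replicate 1 and 0.17 in Medium replicate 1, and lowest in High replicate 3, at -0.22.

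The 5 rows with a chromosome 1 copy split their reads with it. The row of mt-Co1, the catalytic core of complex IV, held 86.8% to 91.5% of the sum of both rows. The row of mt-Co2 held 0% to 3.54%, that of mt-Co3 1.47% to 12%, that of mt-Atp6 8.01% to 17.1% and that of mt-Nd3 30.4% to 52.8%. The mt-Co2 row was listed at 0 in Medium replicate 2, the only 0 among the 109 members, and read 149.7, 141 and 60.0 in Low, 109.9 and 44.6 in the other Medium libraries, and 124, 182 and 17.1 in High. Its sum with the copy was 4446 to 7342 over the same libraries. The copies held 1.33% to 2.13% of a library's signal and 77.8% to 84.4% of the signal in rows without a name.

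**Figure D5:**
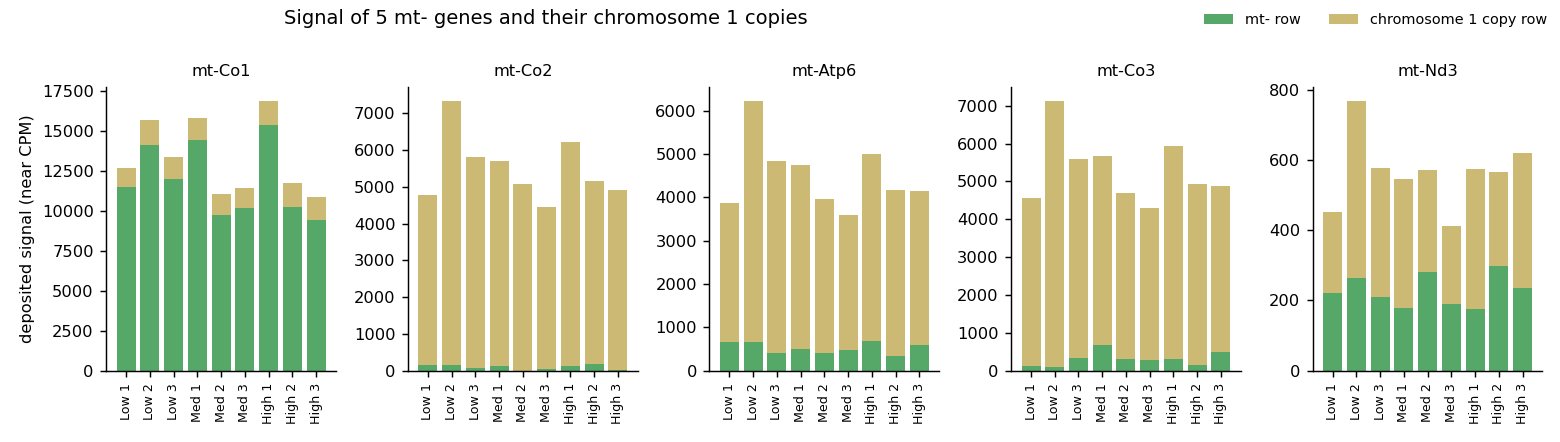
Deposited signal of 5 mt- genes (lower part of each bar) and of their chromosome 1 copies (upper part) in each of the 9 libraries. Most of the signal of mt-Co2, mt-Co3 and mt-Atp6 is in the row of the copy, and the split varies between libraries more than the sum does for mt-Co2 and mt-Co3.

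Summed with their copies, these 5 genes had log2 fold changes for High against Low from -0.15 to 0.00, none of which passed. The sum for mt-Co1 was 13910 ± 1569 in Low, 12753 ± 2650 in Medium and 13167 ± 3246 in High, and for mt-Co2 5981 ± 1288, 5077 ± 626 and 5427 ± 699.5. The sums for mt-Atp6, mt-Co3 and mt-Nd3 were 4980 ± 1184, 5757 ± 1300 and 599 ± 160.1 in Low and 4432 ± 489, 5255 ± 596 and 586 ± 29.6 in High. The log2 fold change for High against Low of the mt-Co2 row was -0.55 ± 1.52 (SE) and that of its sum -0.13 ± 0.18. For mt-Co3 the row gave 0.76 ± 0.52 and the sum -0.11 ± 0.18, which turned the direction. With the sums in place of the rows, the same 2 members passed for High against Low (28.4% of all genes) and for Medium against Low (12.1%). With the copies, mt- genes took 4.86% ± 0.65 of the signal in Low, 4.22% ± 0.588 in Medium and 4.36% ± 0.795 in High.

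The mitochondrial ribosomal RNAs had mean signals of 162 for mt-Rnr1 and 358 for mt-Rnr2. Per kb these were 169.9 and 226, against a median of 1499 for the mt- messenger RNAs. Whether library preparation selected or removed some kinds of RNA is not described here. The order of ribosomal, transfer and messenger RNA is therefore not read as their order in the cells. The large subunit RNA mt-Rnr2 had 436, 313 and 278 in Low, 559, 315 and 263 in Medium and 519.8, 288 and 251 in High. Replicate 1 was the highest library in each population, and the populations overlapped (limma, adjusted p = 0.991 for High against Low). The 7 transfer RNAs had mean signals from 1.02 for mt-Tg to 11.1 for mt-Te. Transfer RNAs are about as long as the reads, and mt-Tg rests on 4 to 31 reads per library.

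The genes that work with the respiratory chain were taken from fixed lists, and some of them changed. Outside the name rule, 14 genes of the chain and its electron feeds were measured, of which 3 were higher and 2 lower in High (limma, adjusted p under 0.05), or 35.7%, against 28.4% of all genes. With the transcript length correction 3 were higher and 2 lower, or 35.7%, against 38% of all genes. Gpd2, which feeds electrons from glycerol 3-phosphate, had 86.7 ± 11.8 in Low and 150.4 ± 14.2 in High (log2 fold change 0.79). Dhodh, a step of pyrimidine synthesis that also feeds the quinone pool, and Cyb5r3 were higher by 0.37 and 0.21. The electron-transferring flavoprotein subunits Etfb and Etfa fell by 0.46 and 0.30 on the log2 scale. Cytochrome c (Cycs) and Cyc1 of complex III did not pass, at adjusted p = 0.374 and 0.835 (limma).

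Of 33 measured assembly factors of complexes II to V, 0 were higher and 3 lower, or 9.09%, against 28.4% of all genes (with the length correction 1 and 3, or 12.1%, against 38%). The 3 were 1110058L19Rik, which RefSeq lists as Sdhaf4 for complex II (-0.70), Cox20 for complex IV (-0.51) and Tmem70 for complex V (-0.43). The call of Cox20 was lost with the transcript length correction (limma, adjusted p = 0.128). Of 13 coenzyme Q genes, 1 passed, or 7.69%, and the share was the same with the length correction. The gene was Coq2, which joins the ring to its tail. It was lower, at 39.8 ± 6.14 in Low and 19.95 ± 2.6 in High (-0.96). Of 13 measured carriers, 2 passed, or 15.4% (with the length correction 1 higher and 2 lower, or 23.1%, against 38%). Slc25a12, of the malate and aspartate shuttle, was higher (0.60). Slc25a4, an ADP and ATP carrier, was lower (-0.53), at 397 ± 61.6 in Low and 272 ± 16.1 in High.

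Of 30 genes of the citric acid cycle and pyruvate use, 5 were higher and 1 lower, or 20%, against 28.4% of all genes. With the transcript length correction 10 were higher and 1 lower, or 36.7%, against 38% of all genes. Mpc1, of the pyruvate carrier, Pcx and the kinase Pdk1 led the higher ones (0.82, 0.52 and 0.39), and Pdk4 was lower (-0.73). Of 30 genes that replicate, transcribe or process mitochondrial DNA and RNA, 5 were higher and 2 lower, or 23.3%, against 28.4% of all genes (with the length correction 7 and 2, or 30%, against 38%). The mitochondrial RNA polymerase Polrmt (0.40), Fastkd5 (0.42) and Elac2 (0.39) led the higher ones, and Tfb1m (-0.40) and Grsf1 (-0.27) were the lower ones. Tfam, which packages mitochondrial DNA, had 115.5 ± 8.88 in Low and 109.8 ± 5.94 in High (limma, adjusted p = 0.576).

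Of 14 measured transcriptional regulators of respiratory genes, 3 were higher and 1 lower in High, or 28.6%, against 28.4% of all genes. With the transcript length correction 7 were higher and 2 lower, or 64.3%, against 38% of all genes. Ppargc1b, a coactivator, had 2.28 ± 0.614 in Low, 6.32 ± 0.892 in Medium and 7.34 ± 0.954 in High (log2 fold change 1.36, limma, adjusted p = 0.000323). Pprc1, of the same family, and Hcfc1 were higher by 0.64 and 0.67, and Gabpb1, the partner of Gabpa, was lower (-0.39). Nrf1, Gabpa and Esrra did not pass, at adjusted p = 0.129, 0.176 and 0.973 (limma; with the transcript length correction Nrf1 passed, at 0.0472), and Ppargc1a was not analysed here.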

How the data were processed

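RNA-seq of 9 libraries (3 sorted populations with 3 replicates each) was taken as deposited. The values are a signal per gene, reads scaled per library by the authors, for 13499 genes. Tools listed in the submitters' processing notes are limma, RSEM 1.17, Picard and cutadapt, with no role for any. Neither a build nor strand handling is given in the sources used here. Within each library every value was a whole multiple of 1 step, within a tolerance of 0.001 reads, which gave back 11114936 to 16755566 reads per library (1 read is worth 0.0606 to 0.0899). Rows without a name numbered 85 and held 1.71% to 2.53% of the signal.

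Comparisons used limma 3.58.1 in R 4.3.3 on log2(signal + 1 CPM), its prior variance following a trend with level, over all 9 libraries and all 13499 genes, which passed a filter of 1 CPM in 3 libraries, with Benjamini-Hochberg adjustment and calls at adjusted p under 0.05. The procedure was tested on simulated data with a common spread and no transcript length trend. That test does not cover the library differences described here. Alternatives were other pseudocounts, filters and scalings, sample weights, a replicate block, a transcript length correction (spline with 5 degrees of freedom, longest GENCODE M21 transcript, 99.4% of genes with a length), leaving out each library, and edgeR 4.0.16 and DESeq2 1.42.0 on the recovered reads. Leaving out libraries together with the length correction, and summing mt- rows with their copies, were chosen after seeing the data. For sample weights the gene-by-gene method was used, because the REML method did not converge.

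Replicates of a population differed by more than counting noise (chi-square per degree of freedom 2.37 to 57 over 9 pairs). Deviations of libraries with the same replicate number correlated at 0.53, 0.26 and 0.18 between High and Low. All exceeded 0.1, so the blocked result is given for that comparison, although High replicate 3 with Low replicate 2 (0.31) and High replicate 2 with Low replicate 3 (0.12) did too. The pairing rests on the data and the shared numbers, since no label says what a number shares; for the other comparisons 1 pair each was below 0 (-0.11 and -0.04).

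The members, the companion gene lists and the motifs were chosen with earlier results of these data known. Genes named are members past the threshold (up to 10 each way for High against Low and 5 otherwise, or the 3 with the smallest p), all mt- messenger RNAs, Sdha to Sdhd, the isoform sets, the most and least abundant member of each complex, up to 3 called genes each way per companion list, and Nrf1, Gabpa, Esrra, Tfam and the Ppargc1 family. Genes called only in an alternative, the core and accessory split, the Ndufaf3 to Ndufaf4 ratio, Impdh2, Emc8, Cyc1, Cycs and members with non-overlapping libraries were named after their values were seen. Some genes are not reported here.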

Additional observations from a re-analysis of the deposited data

How the results depend on the processing

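Medians by complex, shares of signal and counts of members passing were recomputed under each alternative. Of these values 1001 stayed within 1.5 times the count or within the replicate spread, while 21 counts were higher, 9 lower and 4 medians moved further. This tally does not measure robustness. Some values could not change, such as medians for High against Medium when a Low library is left out. Medians that changed sign within the replicate spread are counted as staying. For High against Low without Low replicate 2, that of complex I went from -0.085 to 0.085 and that of complex IV from -0.116 to 0.070. For High against Low, where 2 members passed, 21 passed with sample weights (58.2% of all genes), 7 with the transcript length correction, 7 with the mt- rows summed and the length correction, and 1 to 24 when a library was left out. With the length correction, leaving out Low replicate 1, 2 or 3 gave 20, 7 and 4 members, a Medium replicate 8, 8 and 6, and a High replicate 4, 6 and 4, where 28.5% to 45.4% of all genes passed. With the replicate block 7 members passed for High against Low and 10 for Medium against Low (27.1% of all genes), and with block and length correction 15 (44.5%) and 12 (28.3%); High against Medium kept 0. For Medium against Low, where 2 passed, 55 passed with sample weights (52.2% of all genes), 0 with only those populations in the fit, and 0 to 48 when a library was left out. Of the 55, 54 were lower in Medium (49.5% of members, against 26.6% of all genes) and 1 was higher (0.917%, against 25.6%). With the length correction, 19 passed without Low replicate 1 (33.2% of all genes) and 4 without Medium replicate 2 (14.9%). The weights gave Low replicates 1, 2 and 3 a weight of 0.218, 0.409 and 6.60, so these counts rest largely on Low replicate 3 for the Low population. The median of the complex I assembly factors moved beyond the replicate spread with the length correction, to 0.155 for High against Low without Low replicate 2, and for Medium against Low to 0.0907 without Low replicate 2 and 0.0964 without Medium replicate 3. The median of the mt- messenger RNAs for High against Medium moved to -0.2413 without High replicate 1 with the length correction. Direction turned for mt-Co2 (High against Medium) without Medium replicate 2 with the length correction, at -0.1057. It was not the only turn. For High against Low, mt-Co3 turned when summed with its copy, and the nuclear median turned without Low replicate 2, as given above. The cause of these differences was not tested. Depth limits Ndufa4l2 and the transfer RNAs, and the split of reads between mt- rows and their copies limits mt-Co2 and mt-Co3.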
